A study of Homo sapiens with 8 samples.

Results

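The distal long arm of chromosome 11 was described here as the set of H3K27me3 islands whose midpoint lay between 125 and 135 Mb (hg19), a stretch of 10 Mb that ends near the telomere. It held 436 of the 58144 islands called in the line LY19WT and 412 of the 47432 called in the line LY19Y646F, 848 of 105576 in all. The stretch was chosen by position after island coverage, width, overlap and read density along the genome had been seen, so these measures are given as a description and without a test. At the 125 Mb bound, the last LY19WT island outside had a fold of 4.11 and the next one, inside, a fold of 4.20. In LY19Y646F these values were 1.70 and 2.15.

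Both lines are immortalized human lymphoma B cells, grown untreated and used at passages 10 to 15. LY19WT has wild-type EZH2, and LY19Y646F expresses EZH2-Y646F constitutively from a CMV promoter. Each line had 3 ChIP libraries and 1 input library, described as biological replicates, but a single island list per line. No value therefore has a replicate error, and no test between the lines was made. The labels do not say how many clones LY19Y646F represents, and the files hold no expression values against which the labelled cell type could be checked.

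H3K27me3 is laid down by EZH2, the catalytic subunit of Polycomb repressive complex 2, and marks genes that a cell keeps silent, often as broad domains over developmental and tissue-restricted genes. The mutated tyrosine lies in the catalytic SET domain, and such mutants, which recur in germinal-centre lymphoma, favour the step from di- to trimethylation. The distal arm carries ETS1 and FLI1, ETS transcription factors active in lymphoid and blood cells, in a segment that is recurrently gained in diffuse large B-cell lymphoma. It also carries long neural adhesion genes (NTM, OPCML, KIRREL3), ion channel and protease genes, and clusters of broadly expressed genes.

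To show what lies at the gene starts, the promoters of 4 genes are printed as RefSeq gives them on GRCh38.p14, from 250 bases before to 50 bases after the start, 5′ to 3′ on the gene's strand, with each CG dinucleotide in capitals. TP53AIP1 (chr11:128942822-128943121, minus strand) and NTM (chr11:131370365-131370664, plus strand) had their start inside an island in both lines. KCNJ1 (chr11:128867247-128867546, minus strand) had it in LY19Y646F, and EI24 (chr11:125569227-125569526, plus strand) in neither. These GRCh38 positions are not comparable with the hg19 positions of the islands.
TP53AIP1: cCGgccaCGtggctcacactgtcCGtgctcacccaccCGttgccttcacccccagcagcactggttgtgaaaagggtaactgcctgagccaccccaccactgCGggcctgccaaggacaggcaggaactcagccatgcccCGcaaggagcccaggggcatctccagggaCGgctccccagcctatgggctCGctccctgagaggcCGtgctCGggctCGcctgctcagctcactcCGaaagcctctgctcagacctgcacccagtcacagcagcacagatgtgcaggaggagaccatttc
NTM: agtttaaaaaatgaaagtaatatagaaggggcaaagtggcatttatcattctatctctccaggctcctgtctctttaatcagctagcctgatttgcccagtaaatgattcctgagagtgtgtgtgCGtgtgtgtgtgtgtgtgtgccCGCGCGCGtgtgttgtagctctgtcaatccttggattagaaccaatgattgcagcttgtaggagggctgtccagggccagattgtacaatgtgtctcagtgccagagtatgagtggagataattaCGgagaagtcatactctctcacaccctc
KCNJ1: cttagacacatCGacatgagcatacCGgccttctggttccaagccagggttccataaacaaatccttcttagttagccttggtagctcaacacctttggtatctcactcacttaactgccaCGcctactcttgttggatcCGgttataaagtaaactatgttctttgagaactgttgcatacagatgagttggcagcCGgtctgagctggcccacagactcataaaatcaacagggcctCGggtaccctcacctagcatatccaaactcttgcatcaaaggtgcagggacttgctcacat
EI24: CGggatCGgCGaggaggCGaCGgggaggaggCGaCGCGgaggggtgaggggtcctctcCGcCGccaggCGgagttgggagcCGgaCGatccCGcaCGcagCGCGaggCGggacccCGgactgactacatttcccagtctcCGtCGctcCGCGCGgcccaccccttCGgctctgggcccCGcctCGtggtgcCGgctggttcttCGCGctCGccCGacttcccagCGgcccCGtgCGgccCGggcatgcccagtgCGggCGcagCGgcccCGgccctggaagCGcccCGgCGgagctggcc

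The 4 promoters held 12, 6, 6 and 43 CG dinucleotides in that order. CG reads the same on both strands and its copies do not overlap. In the 35116 promoters of this table the median was 14, and 96.0% held at least 1. In the 22199 promoters of protein-coding genes the median was 21. Among listed genes with a RefSeq promoter, the median was 9 (6 to 30) in the 4 whose start lay in an island in either line. It was 28 (12 to 54) in the 21 whose start lay in neither. The ranges met, since CHEK1 and PRDM10, without an island in either line, had 12 and 13. The value of 30 belonged to KIRREL3, whose start may lie outside the islands of both lines.

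The distal arm was among the most densely marked parts of the genome in LY19WT. Islands of LY19WT covered 56.3% of it and those of LY19Y646F 32.5%, against 19.8% and 13.7% of the autosomes. Among 258 autosomal bins of 10 Mb on the same grid it ranked 2 from the top by LY19WT coverage and 12 by LY19Y646F coverage. The bin above it by LY19WT coverage was its neighbour, from 115 to 125 Mb of chromosome 11. Islands covered 58.9% of that bin in LY19WT and 40.5% in LY19Y646F, so dense coverage was not particular to the arm beyond 125 Mb. The 2 lists differed little in the number of islands and much in covered length, 5.63 Mb against 3.24 Mb, a ratio of 0.576. Over the autosomes this ratio was 0.692. By the ratio of covered lengths the stretch ranked 139 of 257 bins, near their median of 0.625.

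The lines parted by domain width. The median LY19WT island was 7.4 kb wide (quartiles 4.2 and 16.6 kb), and the median LY19Y646F island 5.8 kb (4.2 and 9.25 kb). Over the autosomes both medians were 5.8 kb. In the neighbouring bin from 115 to 125 Mb they were 9.3 kb in LY19WT and 6.6 kb in LY19Y646F. Of the LY19WT islands, 82 (18.8%) were wider than 20 kb, against 9.75% of LY19WT islands on all chromosomes. In LY19Y646F 20 islands (4.85%) were that wide, against 5.06%. Islands over 20 kb held 52.9% of the LY19WT length here and 17.5% of the LY19Y646F length.

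LY19Y646F islands mostly lay within LY19WT domains. An overlap of at least 1 bp with LY19WT was found for 355 LY19Y646F islands (86.2%), against 56.5% on all chromosomes, and 216 of the 412 (52.4%) lay wholly inside 1 LY19WT island, against 25.4% over the autosomes. In reverse, 245 LY19WT islands (56.2%) met one of LY19Y646F, against 39.1%. Shared sequence made up 45.9% of what LY19WT islands covered and 79.7% of what LY19Y646F islands covered, against 33.3% and 48.1% over the autosomes. The Jaccard index divides the length shared by both lists by the length of their union. It was 0.411 here, 0.502 in the neighbouring bin from 115 to 125 Mb and 0.245 over the autosomes. Overlap rises with coverage, and LY19WT islands covered 56.3% of the arm against 19.8% of the autosomes. The part of coverage in these overlap values, and in those of broad islands below, was not tested.

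Broad LY19WT domains were often met by several shorter LY19Y646F islands. Of the 82 LY19WT islands over 20 kb, 58 (70.7%) overlapped at least 2 LY19Y646F islands, 11 overlapped 1 and 13 overlapped none. Over the autosomes these shares were 46.9%, 20.3% and 32.7%. LY19Y646F islands covered a median of 53.2% of them, against 30.1% over the 5671 such LY19WT islands of the autosomes. In the other direction, LY19WT islands covered a median of 94.4% of the 20 broad LY19Y646F islands. The 2 broad LY19Y646F islands that met none of LY19WT lay on either side of ETS1.

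**Figure D1:**
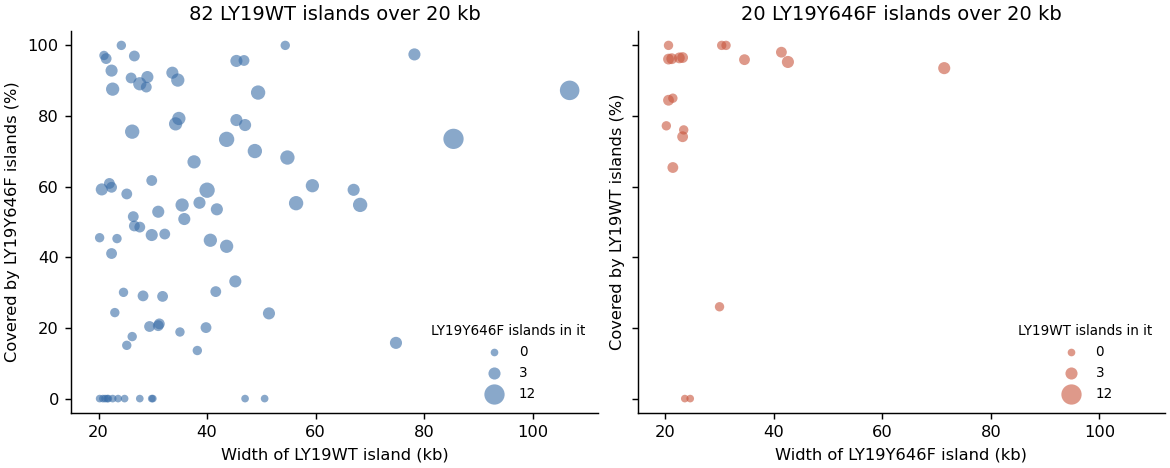
Islands wider than 20 kb on distal 11q, by width in kb (x axis) and by the percent of their length covered by islands of the other line (y axis), for LY19WT at the left and LY19Y646F at the right. Each point is 1 island and its size gives the number of islands of the other line that it overlaps. The widest LY19WT island (106.8 kb) is covered to 87.3% by 11 LY19Y646F islands.

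The 5 widest islands of LY19WT lay over KIRREL3, NTM, PKNOX2, ARHGAP32 and beyond B3GAT1. The widest, from 126455801 to 126562600 in KIRREL3, held 9100 ChIP and 900 input reads at an authors' fold of 3.29 (95% interval 3.07 to 3.53). All intervals on folds given here are exact binomial intervals of the 2 read counts and cover counting error alone. In LY19Y646F it was met by 11 islands that covered 87.3% of it. The next, from 131383001 to 131468400 in NTM, spanned 85.4 kb and was covered to 73.5% by 12 LY19Y646F islands. The island from 125127401 to 125205600 in PKNOX2 spanned 78.2 kb and was covered to 97.4% by 3. That from 128872201 to 128947000 in ARHGAP32 spanned 74.8 kb and was covered to 15.8%. That from 134536401 to 134604600 spanned 68.2 kb and was covered to 54.8%. These domains thus ranged from nearly complete to slight coverage in LY19Y646F.

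The 3 widest LY19Y646F islands all lay in PKNOX2, which encodes a TALE homeodomain factor. They spanned 71.4, 42.6 and 41.4 kb, at folds of 2.56, 2.55 and 2.35, and LY19WT islands covered 93.6%, 95.3% and 98.1% of them. The next spanned 34.6 kb over ADAMTS8 at a fold of 2.98 and was covered to 96.0%. The fifth, of 31.2 kb between BARX2 and TMEM45B, lay wholly under LY19WT islands. The widest domains of LY19Y646F were therefore places that both lists marked.

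**Figure D2:**
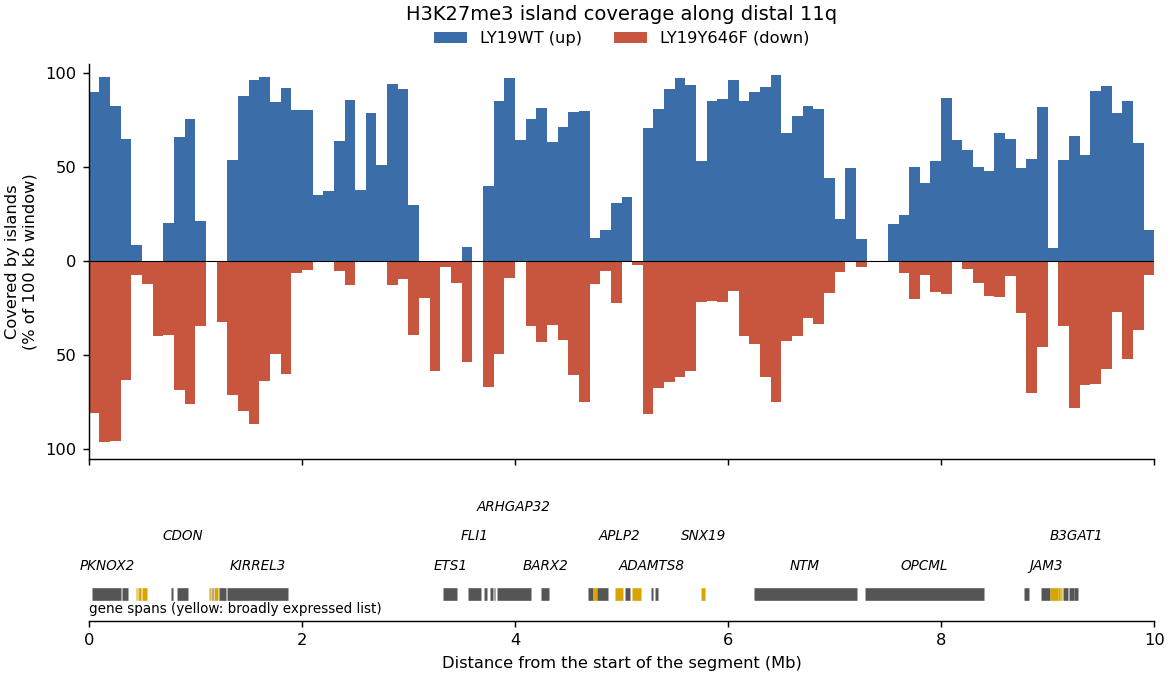
Percent of each 100 kb window covered by H3K27me3 islands, LY19WT upward and LY19Y646F downward, against the distance from the start of the segment in Mb, with spans of the listed genes below. LY19WT coverage is higher in 75 of 100 windows and LY19Y646F coverage in 21, and the windows around ETS1 are among the latter.

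Along the arm, LY19WT coverage was higher in 75 of the 100 windows of 100 kb, against 35.2% of the autosomal windows, and LY19Y646F coverage in 21, against 26.1%. In 19 windows LY19WT was higher by at least 50 percentage points, against 9.29% of the autosomal windows. In 1 window LY19Y646F was higher by that much, against 2.56%. In 26 windows both lines were covered to at least 50%, against 4.85%.

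The ETS1 and FLI1 interval was almost bare in LY19WT and held broad islands in LY19Y646F. From ETS1 to FLI1, the 3 LY19Y646F islands had a median fold of 1.56, against 1.90 over the autosomes. Their median ChIP density was 0.998 times the autosomal median. ETS1 (128.329 to 128.457 Mb) encodes a factor of B- and T-cell differentiation, and FLI1 (128.556 to 128.683 Mb) a factor of haematopoietic and endothelial development. The longest LY19WT stretch without an island on the arm ran over 511 kb from 128040201 to 128551200 and held all of ETS1. LY19Y646F had 15 islands in that stretch, which covered 30.9% of it. Between the 2 genes, islands covered 4.85% in LY19WT and 59.8% in LY19Y646F.

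The gene bodies themselves were nearly free of islands in both lines. In LY19WT no island reached ETS1, and LY19Y646F islands covered 2.19% of it, while FLI1 was covered to 2.36% and 2.68%. At the start of ETS1, LY19Y646F had an island from 128454201 to 128466000 with 475 ChIP and 122 input reads, a fold of 1.49 (1.22 to 1.83). The nearest LY19WT island was 94.2 kb away. At the start of FLI1 both lines had an island. In LY19WT it ran over 7.8 kb from 128551201 to 128559000, with 566 ChIP and 47 input reads and a fold of 3.92 (2.91 to 5.40). In LY19Y646F it ran over 30 kb from 128529401 to 128559400, with 1424 ChIP and 275 input reads and a fold of 1.98 (1.74 to 2.26). The LY19WT island was thus short and of high fold, and the LY19Y646F island broader and of lower fold, and both ended within the first kilobases of FLI1. Relative to the autosomal medians of LY19WT and LY19Y646F, their ChIP density was 1.26 and 1.14 and their input density 0.717 and 1.09. The autosomal median folds were 2.28 and 1.90.

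Further LY19Y646F islands stood alone around ETS1. The island from 128503201 to 128526800 had a fold of 1.56 (1.36 to 1.81) and that from 128194401 to 128219000 a fold of 1.78 (1.54 to 2.06). The weakest, from 128298001 to 128303200, had a fold of 1.28, with a counting interval of 0.953 to 1.75. From 128200001 to 128300000, LY19Y646F covered 58.2% and LY19WT nothing. Input density of LY19Y646F in its islands between ETS1 and FLI1 was 1.21 times its autosomal median, and that of the 1 LY19WT island there 0.717 times. The part of DNA abundance in the difference was not tested. Reads outside islands were not analysed here, so LY19WT may hold the mark there below the calling threshold.

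**Figure D3:**
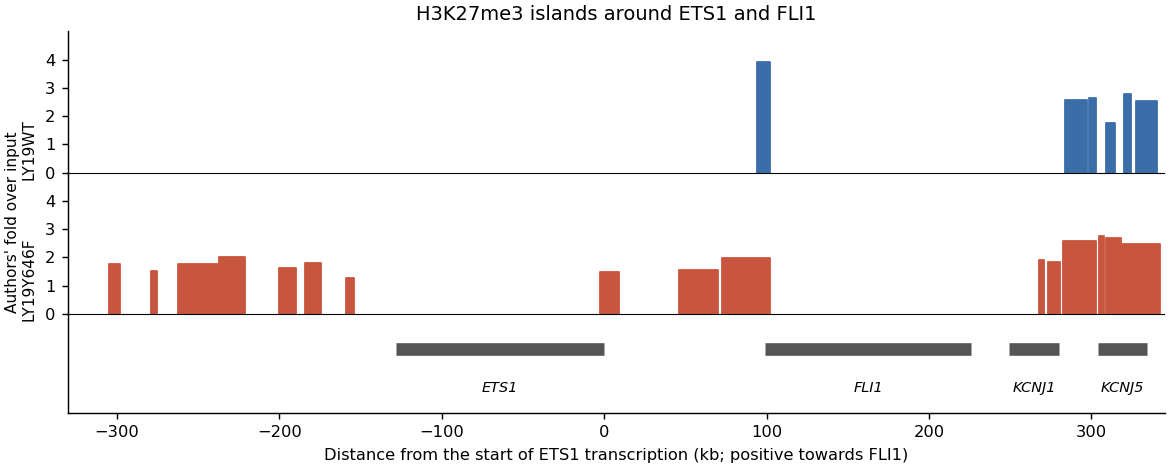
Islands around ETS1 and FLI1 against the distance in kb from the start of ETS1 transcription (positive towards FLI1), with LY19WT above and LY19Y646F below. The height of a box is the authors' fold over input and its width that of the island, and dark bars are gene spans. LY19WT has a single island, at the start of FLI1 (fold 3.92), between ETS1 and FLI1, where LY19Y646F has 3.

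The potassium channel genes beyond FLI1 were covered more in LY19Y646F. KCNJ1, which encodes the renal channel ROMK, had no island in LY19WT, and 33.1% of it lay under islands of LY19Y646F. KCNJ5, which encodes a G-protein-gated channel of heart and adrenal cortex, was covered to 55.1% and 92.2%. The start of KCNJ1, whose promoter is printed above, lay in a LY19Y646F island of 7.4 kb at a fold of 1.82 (1.41 to 2.38). The nearest LY19WT island began 3.50 kb away. Just beyond lies TP53AIP1, a p53-responsive apoptosis gene, covered to 63.2% and 100%, and its start lay in an island in both lines at folds of 3.90 and 2.27.

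ARHGAP32 and BARX2 showed the opposite order. ARHGAP32 lay to 83.3% under islands of LY19WT and to 12.3% under those of LY19Y646F. The window run with the largest excess of LY19WT lay in this gene, from 128900001 to 129100000, covered to 81.0% and 4.40%. Median relative input there was 1.06 in LY19WT over 11 islands and 1.11 in LY19Y646F over 2. Input outside islands was not measured, and its part in the coverage there was not tested. BARX2, a homeobox gene of epithelial and muscle development, was covered to 86.2% and 58.7%, a difference of -27.5 points that widened to -57.7 at an FDR of at most 1e-10. PRDM10, a PR domain factor, had no island in either line.

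The gene-poor stretch between KIRREL3 and ETS1 was covered more in LY19WT. Over its 1458.3 kb, LY19WT islands covered 54.4% and LY19Y646F islands 12.8%, with 63 and 30 islands. Shared length was 9.59% of the LY19WT length and 40.8% of the LY19Y646F length. From 127600001 to 128000000 coverage was 78.8% and 5.60%. The megabase from 127 Mb held 55 LY19WT and 9 LY19Y646F islands at relative input densities of 0.908 and 1.07. The stretch changed sides towards ETS1, where the LY19WT islands ended and the LY19Y646F islands began.

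The IgLON genes, which encode GPI-anchored neural adhesion proteins, were covered more in LY19WT. NTM, 966.3 kb long, was covered to 69.9% and 34.5% by 51 and 52 islands. Its start lay in a LY19WT island of 40.6 kb at a fold of 2.89 and in a LY19Y646F island of 4.4 kb at a fold of 2.57. OPCML, 1117.5 kb long and known as a tumour suppressor candidate in ovarian cancer, was covered to 40.8% and 7.87% by 64 and 18 islands. Its annotated start lay 0.601 kb from a LY19WT island and 0.4 kb from a LY19Y646F island. In OPCML the lines thus differed in island number at like median width, 4.6 kb in LY19WT and 4.8 kb in LY19Y646F. The widest island there was 31.8 kb in LY19WT and 8 kb in LY19Y646F. In NTM island numbers were alike and median widths were 6.8 and 5.6 kb, but its parts differed. The 483.15 kb at its start held 18 and 38 islands, with medians of 24.1 and 5.2 kb. The other 483.15 kb held 33 and 13 islands, with medians of 6.2 and 5.8 kb. In NTM the widest island was 85.4 kb in LY19WT and 20.6 kb in LY19Y646F. Relative input was 0.910 and 0.900 over NTM, and 0.875 and 0.928 over OPCML.

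Upstream of NTM, the 454 kb up to SNX19 held 393.2 kb of LY19WT islands and 113.6 kb of LY19Y646F islands. SNX19, a sorting nexin gene, was covered to 32.4% in LY19WT and had no island in LY19Y646F. Between ADAMTS15 and SNX19 coverage was 91.6% and 60.5%.

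The other immunoglobulin superfamily genes did not share a direction. KIRREL3, a nephrin-like synaptic adhesion gene of 577.3 kb, was covered to 83.9% by 22 LY19WT islands and to 69.1% by 55 LY19Y646F islands. Its listed start lay in an island in both lines, 2.10 and 0.899 kb from the edge, but the spacing of starts in RefSeq differs by 2.64 kb here, so a start outside both islands is possible. CDON, a Hedgehog co-receptor gene, was covered to 84.7% and 75.8%. JAM3, a junctional adhesion gene, had 61.4 of its 82.9 kb covered in LY19WT and 16.6 kb in LY19Y646F, and a LY19WT island of 13.8 kb reached up to its start. IGSF9B, a synaptic adhesion gene, went the other way with 13.6% and 55.6%.

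The protease genes split likewise. ADAMTS8 and ADAMTS15, neighbouring genes for secreted metalloproteases, were covered to 91.3% and 70.7% in LY19WT and to 93.0% and 92.4% in LY19Y646F. ST14, which encodes the epithelial membrane protease matriptase, was covered to 48.4% in LY19WT, with its start in an island of fold 3.01. LY19Y646F had no island within 94.7 kb of that start.

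Most of the listed broadly expressed genes had no island in either line. Of 14 such genes, 12 had no island in either line, among them CHEK1, the checkpoint kinase gene, STT3A, a subunit of the oligosaccharyltransferase, NCAPD3, a condensin II subunit, and VPS26B, a retromer subunit. The exceptions, both in LY19WT alone, were SNX19, covered to 32.4%, and APLP2, an amyloid precursor-like gene, covered to 2.13%. No start of the 14 lay in an island, as for 32 of all 41 listed genes. Of all 41, 14 had no island in either line, and the share over all genes was not computed. For the 11 of them with a RefSeq promoter the median CG number was 31 (12 to 44). TIRAP, an adaptor of Toll-like receptors, also had no island. ST3GAL4, a sialyltransferase gene, had none in LY19WT and 35.3% coverage in LY19Y646F.

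Over all 41 listed genes, 16 were covered more in LY19Y646F, 11 more in LY19WT and 14 had no island in either line. These counts include near ties, such as 0.315 points in FLI1, 0.791 in FEZ1, 1.66 in ADAMTS8, 2.19 in ETS1 and -2.13 in APLP2 (LY19Y646F minus LY19WT). The largest differences were -70.9 points in ARHGAP32 and, in the other direction, 41.9 points in IGSF9B. The genes came from a chosen list, and the share over all genes was not computed. Starts lay in an island in both lines in 5 genes, in LY19WT alone in 2, in LY19Y646F alone in 2 and in neither in 32. For KIRREL3, counted under both lines, and JAM3, counted under LY19WT, the island's edge lay closer to the start than the position check could resolve. Among the remaining genes, FEZ1, an axon outgrowth gene, was covered to 74.3% and 75.1%, and B3GAT1, which makes the CD57 epitope, to 41.9% and 66.5%. GLB1L3, a galactosidase-like gene, was covered to 92.2% and 57.5%. SPATA19, a sperm mitochondrial gene, was covered to 93.9% and 100%, an order that turned when 5 kb on either side were added.

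**Figure D4:**
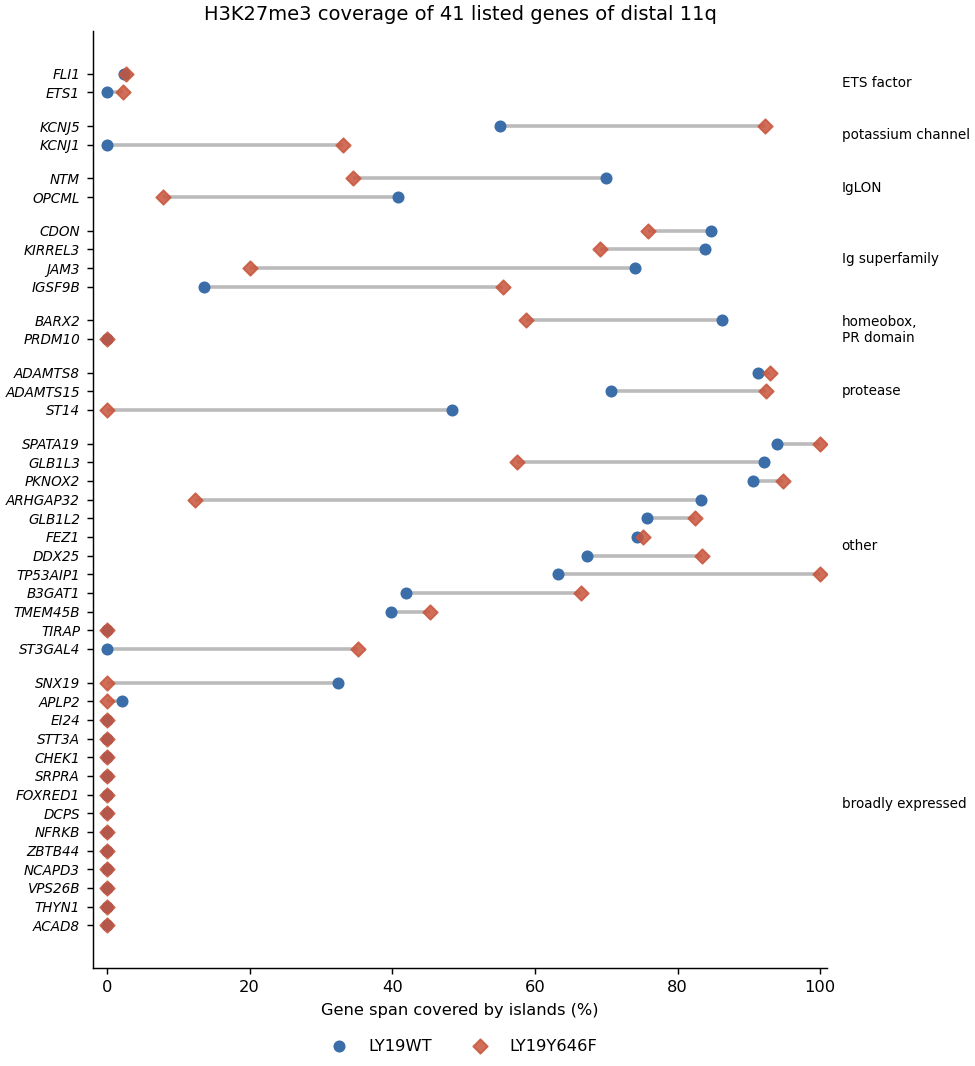
Percent of the span of each of 41 listed genes covered by islands in LY19WT (circles) and LY19Y646F (diamonds), grouped by role. Broadly expressed genes lie at 0 in 12 of 14 cases, NTM and OPCML are higher in LY19WT, and KCNJ1 and KCNJ5 are higher in LY19Y646F.

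Input density was slightly below the autosomal median on the arm as a whole and similar in the lines. Per kb, islands held a median of 7.92 input reads in LY19WT and 7.95 in LY19Y646F, or 0.941 and 0.945 times the autosomal medians. By megabase it ran from 0.892 to 1.04 in LY19WT. In LY19Y646F it ran from 0.821 in the last megabase to 1.15 from 128 to 129 Mb, which holds ETS1 and FLI1. In that megabase coverage was 26.1% in LY19WT and 31.1% in LY19Y646F. In the next one the LY19Y646F input was 1.13, and coverage was 57.5% in LY19WT and 32.7% in LY19Y646F. The part of input density in coverage was not tested. The median of ChIP reads per kb was 60.5 and 41.9, or 1.05 and 1.00 times the autosomal medians. The arm's islands held 388621 ChIP and 44932 input reads in LY19WT, and 139435 and 26081 in LY19Y646F.

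**Figure D5:**
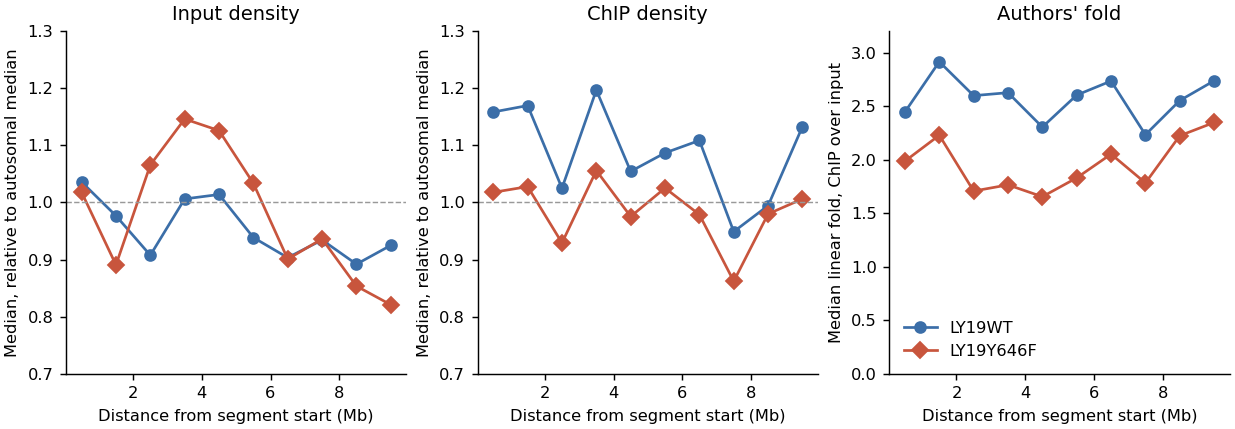
Median input density, ChIP density (both relative to the autosomal median of the same line) and authors' fold of the islands in each megabase, against the distance from the start of the segment in Mb. Points are medians over the islands of 1 list. Input of LY19Y646F reaches 1.15 in the megabase of ETS1 and FLI1 and 0.821 in the last.

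By the authors' fold, enrichment over input was lower in LY19Y646F in most matched islands, on the arm as over the autosomes. The median authors' fold of all islands on the arm was 2.59 in LY19WT and 2.02 in LY19Y646F, against 2.28 and 1.90 over the autosomes. Over 85 pairs that overlapped by at least 50% of both islands, the medians were 2.65 and 2.09, and 65 pairs (76.5%) had the lower fold in LY19Y646F, against 72.7% over the autosomes. On the log2 scale, the median of LY19Y646F relative to LY19WT was -0.29 (quartiles -0.54 and -0.03), with each island's own input as the base. ChIP reads per kb set against the total ChIP reads in islands, without the input of the island, gave 0.56, and then 0% of the pairs were lower in LY19Y646F, against 3.62% over the autosomes. Set against the median autosomal input density they gave -0.56, with 98.8% of the pairs lower, against 98.4%. Over the autosomes the medians with these bases, in the same order, were -0.27, 0.55 and -0.56, close to those of the arm. The direction of the difference between the lines thus depended on the scaling. The values by total ChIP reads and by median input density differ by the same amount in every pair. That total is taken over the islands of each list, so it also depends on the length they cover. Autosomal islands held 37491123 ChIP reads in LY19WT and 17332674 in LY19Y646F. The pair highest in LY19Y646F relative to LY19WT lay near the start of B3GAT1, with folds of 2.61 and 4.34, on 31 and 11 input reads. At the other end, a pair in CDON had folds of 2.86 and 1.45.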

How the data were processed

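The members and gene lists were chosen with earlier results of these data known. The submitters' processing notes name hg19 as the build and, as tools, Bowtie2 (2.2.9), SAMtools (1.3.1), and SICER and bedtools without versions. Per the labels, 1 island list per line, at an FDR of 0.001, goes with all replicates, whose read tracks are given as merged. Island lists were therefore read as calls on the merged replicates. The deposited counts are raw ChIP and input reads per island. The deposited fold, per the file headers a fold change, equals ChIP over input reads divided by 1 constant for the whole list (3.07 in LY19WT, 2.62 in LY19Y646F). The deposited p-value and FDR compare the same reads. The constant of LY19WT was 1.17 times that of LY19Y646F. Autosomal islands held a median of 8.41 and 8.42 input reads per kb. Library totals and reads outside islands were not used here.

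Coverage, overlap (at least 1 bp) and medians were computed with Python 3.11.15, numpy 2.4.6 and pandas 2.3.3. The overlap step was tested on simulated data, 436 islands with a known Jaccard index of 0.385, and returned 0.385. ETS1 and FLI1 positions came with the choice of the segment. Other hg19 gene positions are general knowledge to about 0.1 kb, and the spacing of all 41 starts matched the RefSeq GRCh38.p14 table within 5 kb. RefSeq promoters were found for 25 genes. Genes were named from a list by role, islands by width or fold, and window runs by largest difference, joined where neighbours differed by at least 50 points. Alternatives were FDR limits, joined islands, lists of equal length, stricter overlap, other scalings and 5 kb gene flanks.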

Additional observations from a re-analysis of the deposited data

How the results depend on the processing

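Of 38 alternative values, 28 kept the size of the main value and, for ratios, its direction. Size was kept within 1.5 times the main value, on the linear scale for the log2 ratio. For shares of islands it was kept within the exact 95% binomial interval of the main value. The ratio of island number, 0.945, turned to 1.33 with islands joined across gaps of up to 5 kb and to 1.76 with the LY19WT list shortened to the covered length of the other, where the ratio of covered length, 0.576, was 0.688. Joining raised the median LY19WT width to 17.2 kb. Overlapping shares were 50.4% of LY19WT and 89.6% of LY19Y646F islands at an FDR of at most 1e-10, 67.1% and 75% at equal length, and 19.5% and 20.6% when 50% of both islands had to overlap. The log2 ratio over matched islands, -0.29, turned to 0.56 when scaled by total ChIP reads in islands and was -0.56 by the median autosomal input density. Of the 41 genes, BARX2 moved from -27.5 to -57.7 points at that FDR and SPATA19 turned to -20.1 points, LY19Y646F minus LY19WT, with 5 kb on either side. The cause was not tested. No paired analysis was possible because each line has 1 island list whose columns carry no replicate. Folds of narrow islands rest on few input reads, and a merged list has no replicate error.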

Other observations

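The longest stretches without an island also differed between the lines. In LY19WT the next after the one at ETS1 ran over 346.2 kb with EI24, STT3A and CHEK1, and over 286 kb with SRPRA, FOXRED1, TIRAP, DCPS and ST3GAL4. LY19Y646F islands covered 20.6% and 17.8% of these. In LY19Y646F the longest ran over 354.2 kb from 127450801 to 127805000, where LY19WT had 19 islands that covered 60.6%. The stretch of 352.8 kb from 132291801 to 132644600, inside OPCML, was nearly empty in both, with 5.61% covered in LY19WT.

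The highest folds on the arm came from narrow islands with few input reads. In LY19WT the first, from 134502801 to 134504800, had 123 ChIP and 5 input reads and a fold of 8.01, with a 95% counting interval of 3.34 to 25.1. The next ones had folds of 4.95 (in OPCML) and 4.90, and neither place held a LY19Y646F island. In LY19Y646F the first had a fold of 5.02 (2.86 to 9.62), on 13 input reads. The next lay in B3GAT1 at a fold of 4.34 (2.34 to 8.91), and the third had a fold of 4.23.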
